A study of Homo sapiens with 16 samples.

Results

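The sites described here are 4088 binding sites of the transcription factor HOXB13 in LNCaP prostate cancer cells that lay in open chromatin and had no peak of the histone deacetylase HDAC3. They were chosen from the control libraries: a control HOXB13 peak was kept when it overlapped a control ATAC-seq peak by at least 1 bp and overlapped no control HDAC3 peak, on chromosomes 1 to 22 and X. They made up 4.50% of the 90813 control HOXB13 peaks on those chromosomes. Of the other control HOXB13 peaks, 5253 overlapped both an ATAC and an HDAC3 peak and are called open sites with HDAC3. A further 74579 overlapped neither and are called closed sites, and 6893 overlapped an HDAC3 peak alone. "Open" and "closed" mean only that an ATAC peak was or was not called there.

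LNCaP, an androgen-sensitive line, was studied 7 days after infection. The cells had received a control vector (pGIPZ), an shRNA against HOXB13 (shHOXB13), or shHOXB13 and a lentivirus that carried HOXB13-WT or HOXB13-G84E. HOXB13 was mapped by ChIP-seq in all 4 conditions. HDAC3 ChIP-seq and ATAC-seq (50000 cells) were made with pGIPZ and with shHOXB13, and HDAC1 ChIP-seq with pGIPZ. PC-3, an androgen-independent line, gave HOXB13 ChIP-seq with pGIPZ, made with another HOXB13 antibody than in LNCaP, and H3K27ac ChIP-seq with pGIPZ and with shHOXB13. Each group held 1 library, so no value has a replicate error and no test between conditions was possible. The intervals given cover only counting error and the spread from site to site. Total tags (sequenced fragments) ranged from 13.5 to 47.2 M per library, where M stands for mega.

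HOXB13 is a homeobox protein of the prostate and hindgut lineage that binds AT-rich sites, often beside FOXA1 and the androgen receptor. Its G84E variant is inherited and linked to prostate cancer risk. HDAC3 removes acetyl groups from histones as part of corepressor complexes, while HDAC1 works mainly in the NuRD, SIN3 and CoREST complexes. ATAC-seq marks DNA that a transposase can reach, such as active promoters and enhancers, and H3K27ac marks enhancers and promoters that are active.

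The strength of a peak is given as its normalized tag count, the tags in the peak per 10000000 tags of its library. At the 4088 sites the control HOXB13 tag count had a median of 10.5 (quartiles 7.57 and 15.7, range 4.07 to 968.8), against 11.1 at open sites with HDAC3 and 6.98 at closed sites. The control ATAC tag count had a median of 4.70 (quartiles 3.87 and 6.37, range 2.21 to 169.1), against 5.81 at open sites with HDAC3. These values come from the libraries that chose the sites and are a description. They show that the sites were stronger HOXB13 peaks than closed ones and weaker ATAC peaks than those with HDAC3. Many comparisons between classes below are therefore also given at equal strength.

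The rule asks that the ATAC peak overlap the HOXB13 peak, so its position is in part fixed by the choice and is given as a description. A single ATAC peak was present at 98.1% of the sites, and at 69.8% it lay wholly inside the HOXB13 peak. Its centre was a median of 65 bp from the HOXB13 centre (quartiles 32 and 108), near the 67 bp of open sites with HDAC3. The sites were scattered: the nearest other site of the set was a median of 162664.5 bp away, and 6.70% had one within 10000 bp. By contrast, 57.5% had some other control HOXB13 peak within 10000 bp. Among HOXB13 peaks of 1 chromosome, the set made up between 2.16% (chromosome 21) and 7.04% (chromosome 19).

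The rule draws lines through continuous values. Just inside the ATAC limit, 449 sites shared at most 50 bp with their ATAC peak, and 51.2% of them had an ATAC peak after knockdown. Just outside it, 272 closed sites had an ATAC peak within 50 bp, with 32.7%. Just inside the HDAC3 limit, 139 sites had a control HDAC3 peak within 50 bp that did not touch them, and 45.3% had an HDAC3 peak after knockdown. Just outside it, 169 open sites shared at most 50 bp with an HDAC3 peak, and 49.1% had one after knockdown. The sites next to the HDAC3 limit therefore resembled those across it in this respect.

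HOXB13 was called at few of these sites after knockdown and at most of them after either form was put back. With shHOXB13 alone, 130 of the 4088 sites (3.18%, 95% CI 2.68 to 3.76) had a HOXB13 peak, against 1.38% of all control HOXB13 peaks. With HOXB13-WT, 3188 sites (78.0%) had one, against 67.4% of all control peaks. With HOXB13-G84E the number was 2823 (69.1%), against 63.2% of all. Both forms were called at 2578 sites (63.1%), WT alone at 610 (14.9%), G84E alone at 245 (5.99%) and neither at 655 (16.0%). WT alone was called at 13.6% of open sites with HDAC3 and 13.1% of closed sites, and G84E alone at 5.83% and 9.71%. Neither was called at 13.5% and 25.7%. WT was thus called without G84E more often than the reverse in each of these classes, and not only at the 4088 sites.

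**Figure D1:**
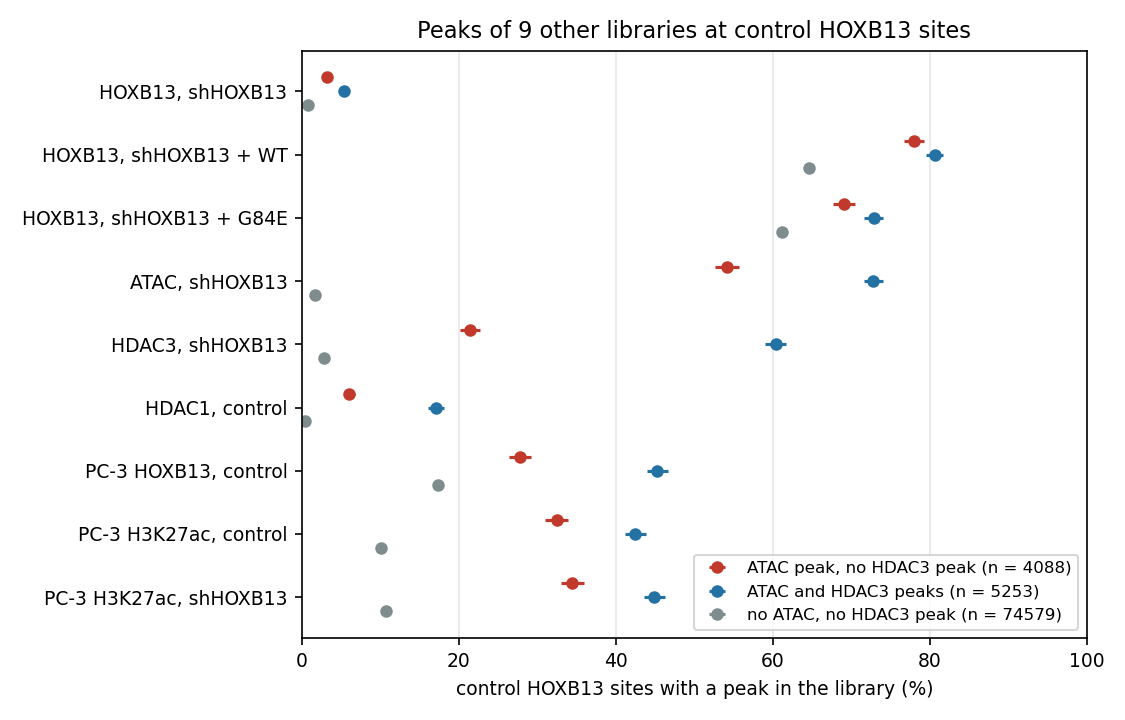
Share of control HOXB13 sites with a peak in each of 9 other libraries (horizontal axis, %), for sites with an ATAC peak and no HDAC3 peak, sites with both, and sites with neither; bars are Wilson 95% intervals. At 54.2% for ATAC after knockdown and 21.4% for HDAC3 after knockdown, the sites lie between the other classes.

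The sites called again after knockdown were the exception to the loss. Their knockdown tag count had a median of 5.72 (quartiles 4.87 and 6.99), and the median log2 ratio to the control was -0.64 (95% CI -0.74 to -0.39, n = 130). At 26 of the 130 (20.0%) the knockdown tag count was at or above the control. HDAC1 peaks lay at 28.5% of these sites and at 5.31% of those that lost HOXB13. PC-3 H3K27ac regions lay at 70.0% and 31.2%. The sites that kept a HOXB13 peak thus more often had an HDAC1 peak in LNCaP and an H3K27ac region in PC-3. Their median control ATAC tag count was 6.37, against 4.7 at the others. These shares were not compared at equal ATAC strength. Peaks were called with no input library, and the part of regions that gather tags in any library was not tested. Without the sites called in 9 or more of the 12 lists, the share with a knockdown HOXB13 peak was 2.36%. The knockdown HOXB13 list is 1 of the 12, so sites were left out in part for having that peak.

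The strongest sites of the set stood apart from the rest. Whether these places gather tags in any library, HOXB13 bound or not, was not tested, and no list of regions to exclude was applied. At chr10:42400301-42400591 (hg19, as are all coordinates) the HOXB13 tag count was 968.8 in the control, 1435.5 after knockdown, 708.7 with WT and 712 with G84E. At chr7:61970258-61970548 it was 881.8, 1325.8, 745.7 and 711 in the same order. Both tag counts were higher after knockdown, and the log2 ratios of knockdown to control were 0.57 (exact 95% CI 0.51 to 0.63) and 0.59 (0.53 to 0.65). A pair of neighbouring peaks, chr6:58778636-58778926 and chr6:58776429-58776719, held 726.1 and 678.1 control tags, with no knockdown HOXB13 peak called at either. The fifth, chr4:68264538-68264828, held 111.5 control and 163.8 knockdown tags. The authors' deposited fold over the surrounding DNA was between 4.05 and 6.82 at all 5 sites, against a median of 7.63 over the 4088, so their high tag counts came with a raised surrounding. No other site of the set exceeded 100 normalized tags. In the shares these sites count no more than any other.

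The gap between the forms was wider at these sites than at closed sites. The share with a WT peak exceeded the share with a G84E peak by 8.93 percentage points (95% CI 7.55 to 10.3) at the 4088 sites and by 3.44 points (3.09 to 3.78) at closed sites. The difference between those gaps was 5.49 points (4.08 to 6.91), and 5.31 (3.91 to 6.72) when closed sites were weighted to the same HOXB13 strength over 10 equal groups. At open sites with HDAC3 the gap was 7.77 points (6.59 to 8.94), which differed from the gap without HDAC3 by 1.16 points (-0.65 to 2.97), an interval that spans 0. At the sites with an HDAC3 peak and no ATAC peak it was 6.70 points (5.72 to 7.68), from which the gap at the 4088 sites differed by 2.47 points (0.81 to 4.14) at equal HOXB13 strength. The narrow gap was thus that of sites with neither peak, and a difference between open sites with and without HDAC3 was not resolved.

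Strength changed the comparison of each form with closed sites. The crude WT share was 13.4 points above that of closed sites (12.1 to 14.7). At equal HOXB13 strength the difference was -1.08 (-2.29 to 0.13), so no average difference was resolved. The crude G84E share was 7.90 points above (6.42 to 9.34), and at equal strength the difference was -6.39 (-7.72 to -5.06), so G84E was called at fewer of the open sites. In the weakest of 10 strength groups WT was called at 51.3% of the sites and 43.2% of closed sites, and G84E at 36.1% and 42.3%. In the strongest group the values were 96.9% and 97.6% for WT, and 94.4% and 96.2% for G84E. The G84E share was below that of closed sites in 10 of 10 groups and the WT share in 5 of 10. The WT share was above that of closed sites in groups 1 to 5 (58.7% against 50.7% in group 3). It was below in groups 6 to 10 (87.6% against 91.6% in group 9). The WT value at equal strength thus averages over opposite differences.

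**Figure D2:**
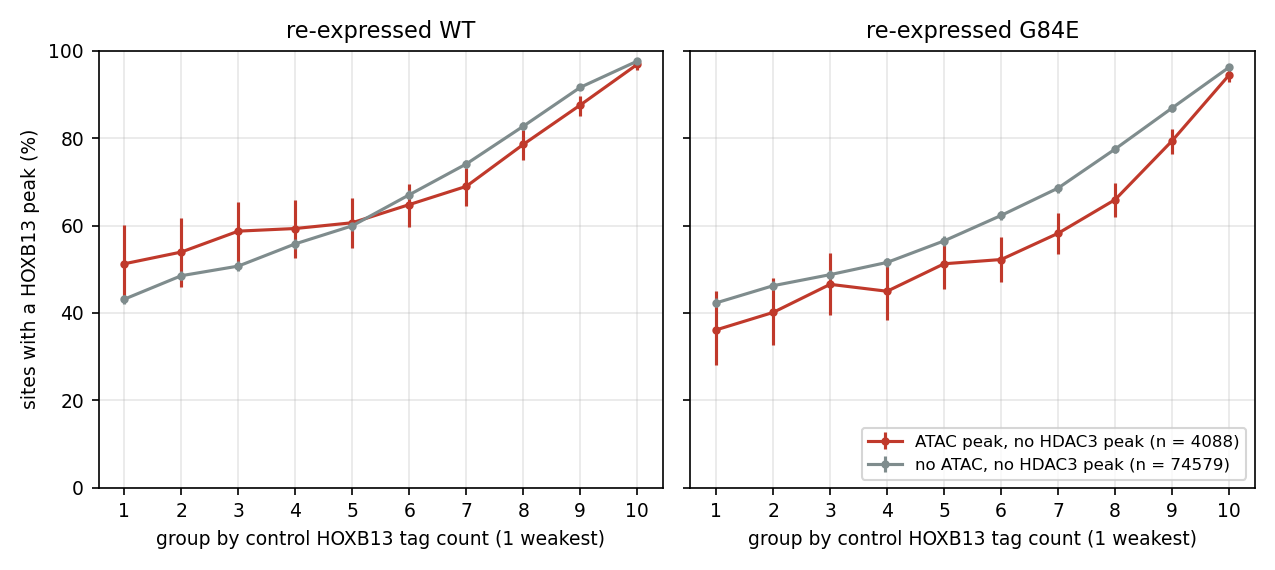
Share of sites with a HOXB13 peak (vertical axis, %) after re-expression of WT (left) or G84E (right), in 10 equal groups of control HOXB13 tag count (1 is the weakest), with Wilson 95% intervals. The WT curves cross, while the G84E curve of the open sites without HDAC3 lies below that of closed sites in each group.

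Where both forms were called, G84E gave fewer tags than WT. The median WT tag count at the sites was 11.9 and the median G84E tag count 10.4. Over the 2578 sites with both, the median log2 ratio of G84E to WT was -0.31 (95% CI -0.33 to -0.29; quartiles -0.58 and -0.03). It was -0.35 at open sites with HDAC3, -0.18 at closed sites and -0.21 over all 49197 control peaks with both. The G84E library had 15.6% of its tags in peaks and the WT library 17.1%, with lists of 191796 and 190879 peaks. The part of that difference in the ratio was not tested; the same pair of libraries gave the values at closed sites.

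The lower G84E signal was found in all but the weakest of the sites. All control HOXB13 peaks called with both forms were divided into 5 equal groups by WT tag count, and at the sites the median ratio was 0.06, -0.13, -0.33, -0.38 and -0.43 from the weakest to the strongest. Closed sites in the same groups gave 0.17, -0.09, -0.25, -0.34 and -0.39. The groups are cut on the denominator of the ratio, which by construction lowers it towards the strong end in both classes. In each of the 5 groups the value at the open sites without HDAC3 was the lower one, and the intervals of the classes overlapped in groups 2 and 4.

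**Figure D3:**
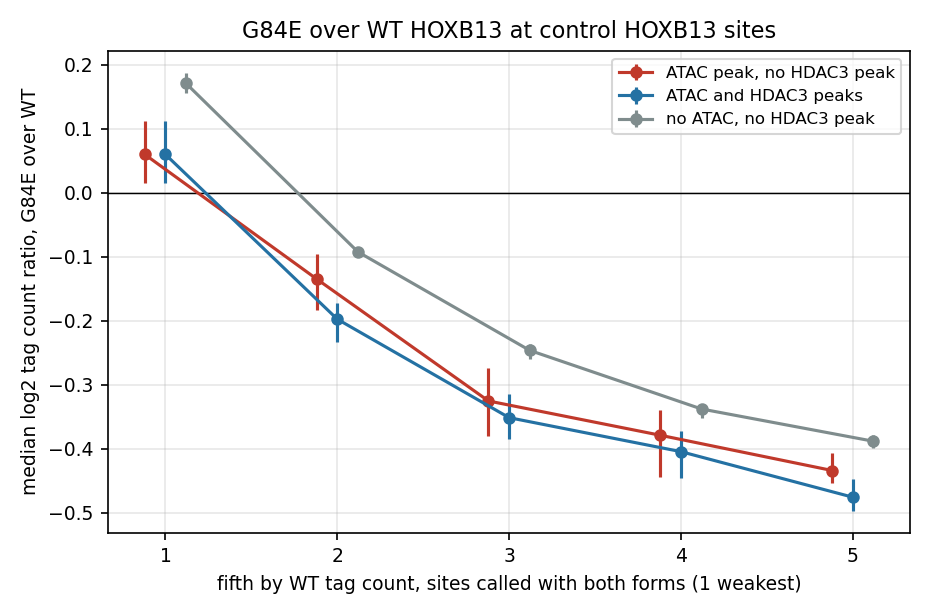
Median log2 ratio of G84E to WT tag count (vertical axis) in 5 equal groups of WT tag count (1 is the weakest), for sites called with both forms; bars are 95% order-statistic intervals. Both classes of open site lie below closed sites in each group.

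Changes of 2-fold or more between the forms were rare and near the background. A log2 ratio of -1 or below was found at 126 sites (4.89%), against 4.00% of all control HOXB13 peaks called with both forms, and a ratio of 1 or above at 8 sites (0.310%), against 0.606%. The largest fall among well-covered sites was at chr11:35895393-35895683, with 18.9 tags in the control, 23.6 with WT and 7.92 with G84E (log2 ratio -1.58, exact 95% CI -2.18 to -1.0). At chr6:113990228-113990518 the tag count was 20.6 with WT and 7.02 with G84E (-1.55, -2.20 to -0.94), and at chr16:4666167-4666457 it was 18.6 and 6.56 (-1.50, -2.18 to -0.87). In the other direction, chr12:104526498-104526788 held 11.2 with WT and 19.9 with G84E (0.83, 0.30 to 1.39), and chr1:224492404-224492694 held 10.4 and 18.3 (0.82, 0.26 to 1.39). These sites were named because their ratios were extreme, which the intervals do not allow for.

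The 655 sites where neither form was called were weaker HOXB13 peaks with more HDAC1 and PC-3 H3K27ac. Their median control HOXB13 tag count was 7.57, against 13.1 where both were called, while the median ATAC tag count was 4.70 in both sets. HDAC1 peaks lay at 12.5% of them against 3.88%, and PC-3 H3K27ac regions at 40.6% against 28.8%. Their ATAC peak was called after knockdown at 60.5%, against 51.8%. Open sites with HDAC3 differed the same way, with HDAC1 at 29.3% against 12.8% and PC-3 H3K27ac at 51.9% against 39.0%. At closed sites the values were 0.34% against 0.34% for HDAC1 and 9.50% against 10.4% for PC-3 H3K27ac. These shares were not compared at equal HOXB13 strength. Among the 655 were some strong control peaks. At chr17:46806019-46806309 the control HOXB13 tag count was 39.9, and PC-3 had 79.5 HOXB13 tags and H3K27ac regions of 945.6 (control) and 1345.9 (knockdown) tags. At chr6:34360383-34360673 the control HOXB13 tag count was 33.2, with ATAC tag counts of 5.81 before and 6.28 after knockdown and 16.0 HDAC3 tags after knockdown. The strongest of the 655, chr21:9825962-9826252, was also the strongest ATAC peak of the set (169.1 control and 192.7 knockdown tags), and it held 90.8 HOXB13 tags in the control and 268 with knockdown. It also held 102.5 control HDAC1 tags, and its deposited fold over the surrounding DNA was 4.47. Whether this place gathers tags in any library was not tested.

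ATAC peaks were called again at more than 50% of the sites when HOXB13 was lowered. After knockdown 2216 of 4088 sites (54.2%, 95% CI 52.7 to 55.7) overlapped an ATAC peak, against 8.93% of all control HOXB13 peaks, most of which had none in the control. Open sites with HDAC3 had 72.8%. The difference was -18.6 points (-20.5 to -16.6), and -9.89 (-11.8 to -7.94) at equal control ATAC strength. Within the set the share followed the starting strength: over 5 equal groups by control ATAC tag count, it went from 29.0% (weakest) to 86.5% (strongest). Over 5 equal groups by HOXB13 tag count it was 55.5% at the weak end and 52.5% at the strong end. The knockdown ATAC library was shallower (25.5 against 36.1 M tags), and its calling threshold was 3.92 normalized tags against 3.04. Of the 2894 sites whose control tag count was at or above the knockdown threshold, 63.9% were called again, against 78.8% of open sites with HDAC3 chosen the same way.

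Set against open chromatin with neither HOXB13 nor HDAC3, the ATAC peaks at these sites were called again more often. Of the 4165 control ATAC peaks at the sites, 48.7% overlapped a knockdown ATAC peak, against 40.3% of 16797 control ATAC peaks with neither HOXB13 nor HDAC3. This share is lower than 54.2% because it asks for overlap of the narrower ATAC peaks themselves. The difference was 8.42 points (6.73 to 10.1) and 9.64 (8.08 to 11.2) at equal ATAC strength. From the weakest to the strongest of 10 strength groups the share went from 25% to 79.3% at the sites, and from 15.9% to 78.5% at the peaks without HOXB13. ATAC calls were thus lost less often at these HOXB13 sites than at open chromatin with neither a HOXB13 nor an HDAC3 peak in the control. Of the 10383 control ATAC peaks with HDAC3 and no HOXB13, a larger share (58.8%) was called again than at the sites. Those peaks were stronger, with a median ATAC tag count of 5.81 against 4.7, and were not compared at equal strength.

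**Figure D4:**
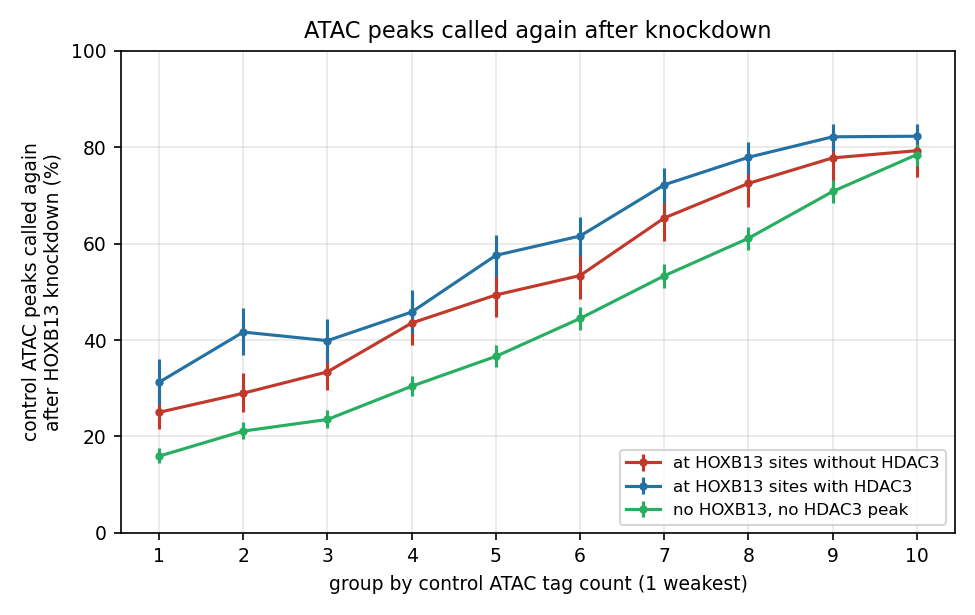
Share of control ATAC peaks called again after HOXB13 knockdown (vertical axis, %) in 10 equal groups of control ATAC tag count (1 is the weakest), with Wilson 95% intervals. The peaks at HOXB13 sites without HDAC3 run from 25% to 79.3%, below those at HOXB13 sites with HDAC3 and above those with neither.

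At the sites called in both ATAC libraries the signal was similar, which the choice of those sites in part fixes. The 1872 sites with no knockdown ATAC peak gave no ratio. The median knockdown ATAC tag count was 6.28, and the median log2 ratio to the control was 0.17 (0.14 to 0.20, n = 2216). Knockdown ATAC peaks were 111 bp wide and control peaks 96 bp, and per bp the median ratio was -0.03, so the sign depended on that width. A log2 ratio of -1 or below was found at 12 sites (0.542%), against 0.397% over all control HOXB13 peaks called in both, and 1 or above at 78 (3.52%), against 3.03%. The control ATAC library chose the sites, and sites that fell below calling after knockdown are missing. Nothing is therefore read from the median or from these counts. The largest fall was at chr1:161582268-161582558, from 11.1 to 4.71 ATAC tags (log2 ratio -1.24, exact 95% CI -2.30 to -0.27), where HOXB13 went from 12.8 to 5.72 tags and an HDAC3 peak of 14.8 tags was called after knockdown. The largest rise was at chr1:64806398-64806688, from 3.04 to 9.42 tags (1.63, 0.55 to 2.81), and its control value lay at the control calling threshold. Both sites were named because their ratios were extreme, which the intervals do not allow for.

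HDAC3 peaks were called at 21.4% of the sites after HOXB13 knockdown. This was 875 of 4088 sites (95% CI 20.2 to 22.7), against 9.35% of all control HOXB13 peaks. Since the sites were chosen for having no control HDAC3 peak, the share could only go up from 0. Closed sites were chosen the same way on HDAC3 and had 2.80%. The difference was 18.6 points (17.4 to 19.9), and 17.2 (15.9 to 18.4) at equal HOXB13 strength. Open chromatin without HOXB13 also gained HDAC3 calls: of control ATAC peaks 17.5% overlapped a knockdown HDAC3 peak at the sites and 13.8% where neither HOXB13 nor HDAC3 had been called, a difference of 3.62 points (2.38 to 4.91). At equal ATAC strength it was 3.73 (2.48 to 4.99). The ATAC peaks at the sites were not themselves screened for overlap with a control HDAC3 peak, while those of the other class were. The part of this in the difference was not tested. The sites thus stood far from closed sites and much nearer to open chromatin without HOXB13 or HDAC3.

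The knockdown HDAC3 peaks themselves were compared with the control HDAC3 list. At 745 of the 875 sites (85.1%) the knockdown HDAC3 peak overlapped no control HDAC3 peak, and at 130 it did. At 834 sites (20.4% of 4088) its tag count also reached the control library's calling threshold of 7.42, against 2.50% of closed sites. The knockdown HDAC3 tag count at the sites had a median of 12.9 (quartiles 9.88 and 17.1), against 15.6 at open sites with HDAC3 and 11.8 over all knockdown HDAC3 peaks. The HDAC3 centre was within 100 bp of the HOXB13 centre at 34.4% of the 875. The HDAC3 libraries differed in estimated fragment length (146 bp in the control and 364 bp after knockdown) and in peak width (471 and 365 bp), and the part of this, or of a shift of nearby control peaks, in the knockdown calls was not tested.

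The share with a knockdown HDAC3 peak was highest close to a control HDAC3 peak. That distance had a median of 14259.5 bp at the sites and 29069 bp at closed sites. Within 500 bp of a control HDAC3 peak, 31.4% of the sites and 12.3% of closed sites had an HDAC3 peak after knockdown. Between 500 and 2000 bp the shares were 18.0% and 3.72%, between 2000 and 10000 bp 21.9% and 3.50%, and between 10000 and 50000 bp 21.9% and 2.93%. Beyond 50000 bp they were 15.0% and 1.40%. The sites thus stood above closed sites at each distance, and their share did not go down steadily with distance. HDAC3 after knockdown was more frequent at sites with stronger ATAC signal, with 15.8% and 30.8% in the outer groups of 5 by ATAC tag count.

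**Figure D5:**
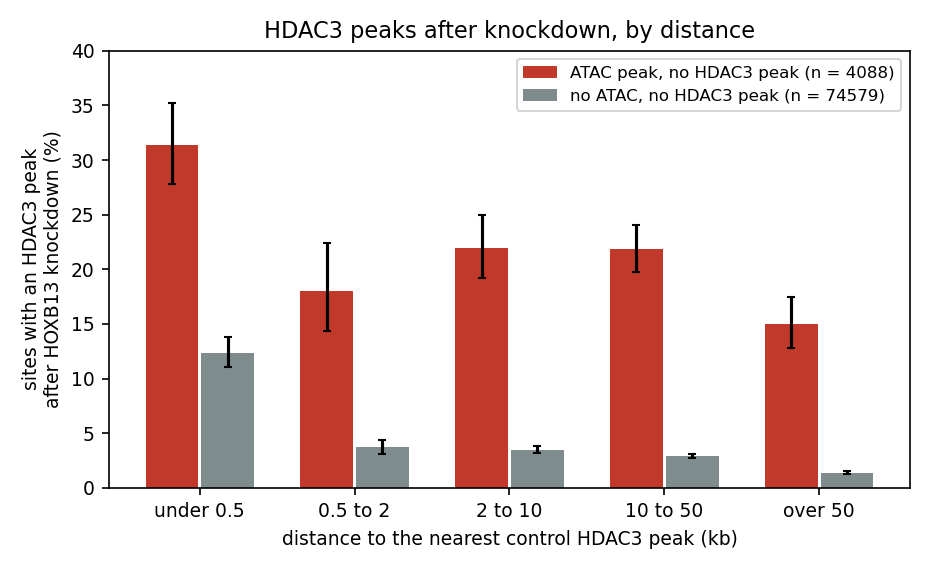
Share of sites with an HDAC3 peak after HOXB13 knockdown (vertical axis, %) by distance to the nearest control HDAC3 peak (horizontal axis, kb); bars are shares and whiskers Wilson 95% intervals. The open sites without HDAC3 have 31.4% at the nearest and 15.0% at the farthest distance, with 18.0%, 21.9% and 21.9% between, and closed sites run from 12.3% to 1.40%.

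HDAC3 and ATAC calls after knockdown went together. An HDAC3 peak was called at 25.9% of the sites whose ATAC peak was called again and at 16.0% of those whose ATAC peak was not. The same was found in other classes. At open sites with HDAC3, 2463 of 3824 with a knockdown ATAC peak also had a knockdown HDAC3 peak. Without the ATAC peak, 707 had HDAC3 and 722 did not. At closed sites, 183 of 1229 with a knockdown ATAC peak had HDAC3. Without it, 1907 had HDAC3 and 71443 did not. The pattern was thus not particular to the sites described here. Split the other way, 575 of the open sites without HDAC3 (14.1%) had both peaks after knockdown and 1641 (40.1%) ATAC alone. Another 300 (7.34%) had HDAC3 alone and 1572 (38.5%) neither. The sites with both had the highest control ATAC tag count of the 4 groups, a median of 6.09, and those with neither the lowest, 4.15. The largest knockdown HDAC3 tag count was 57.4, at chr19:5791104-5791394, where HDAC1 had 70.9 tags in the control. A control HDAC3 peak lay only 43 bp from that site. The next, chr2:89850435-89850725, held 55.9 HDAC3 tags, with HOXB13 tag counts of 42.5 (control) and 97.5 (knockdown). HOXB13 tags there were thus higher after knockdown, and whether this place gathers tags in any library was not tested. At chr12:122750507-122750797 (49.0 HDAC3 tags) a control HDAC3 peak lay 13 bp away. Of the 5 with the highest knockdown HDAC3 tag count, 4 were therefore next to a control HDAC3 peak.

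HDAC1 was rare at these sites in the control cells. An HDAC1 peak lay at 247 sites (6.04%, 95% CI 5.35 to 6.81), against 1.89% of all control HOXB13 peaks and 17.0% of open sites with HDAC3. The difference from open sites with HDAC3 was -11.0 points (-12.2 to -9.72), and -6.59 (-7.70 to -5.48) at equal ATAC strength. HDAC1 was also rarer than in open chromatin without HOXB13. Of control ATAC peaks, 4.54% at the sites and 21.9% at those without HOXB13 or HDAC3 overlapped an HDAC1 peak, a difference of -17.0 points (-17.8 to -16.1) at equal ATAC strength. The 247 sites had weaker HOXB13 (median 7.86 against 10.5 tags) and stronger ATAC signal (6.92 against 4.70) than the rest. PC-3 H3K27ac regions lay at 80.6% of them and at 29.3% of the others. WT was called at 58.7% of them against 79.2%, and G84E at 48.6% against 70.4%. These shares were not compared at equal HOXB13 strength. Over 5 equal groups by HOXB13 tag count, the group with the same median of 7.86 had 66.7% for WT and 54.9% for G84E.

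In PC-3, HOXB13 was present at fewer of these sites than of open sites with HDAC3. A PC-3 HOXB13 peak lay at 1134 sites (27.7%, 95% CI 26.4 to 29.1), against 21.1% of all control LNCaP peaks, 45.3% of open sites with HDAC3 and 17.3% of closed sites. The difference from open sites with HDAC3 was -17.5 points (-19.4 to -15.6), and -16.6 (-18.5 to -14.6) at equal HOXB13 strength. It was -1.98 (-3.95 to -0.0042) once regions called in 9 or more of the 12 lists were left out. That step removed 153 of the sites (3.74%) and 1560 open sites with HDAC3 (29.7%), whose control HDAC3 peak counts as 1 of the lists. The PC-3 HOXB13 list is itself among the 12, so that step removes sites in part for having the peak counted here. The difference from closed sites was 10.4 points (9.05 to 11.9), of which 2.72 (1.28 to 4.15) were found at equal HOXB13 strength. Over 5 equal groups by LNCaP HOXB13 tag count, the share went from 21.8% to 37.8%. Cell line and antibody both differ from the LNCaP libraries and cannot be told apart.

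H3K27ac in PC-3 lay at 32.4% of the sites in the control and at 34.4% after HOXB13 knockdown. A control H3K27ac region covered 1326 sites (95% CI 31.0 to 33.9), against 14.0% of all control HOXB13 peaks. After knockdown it was 1408, against 14.9% of all. Open sites with HDAC3 had 42.4% in the control, a difference of -10.0 points (-11.9 to -8.03), which was -3.82 (-5.75 to -1.89) at equal ATAC strength. Both PC-3 lists covered 1237 sites (30.3%), the control alone 89, the knockdown alone 171 and neither 2591 (63.4%). The median log2 ratio of knockdown to control at the 1237 was 0.37 (0.34 to 0.41), near the 0.34 over all control HOXB13 peaks with both. The knockdown library had 46.2% of its tags in regions and the control 38.9%, and the part of this in the ratio was not tested.

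The sites with and without H3K27ac in PC-3 differed in most other readouts. PC-3 HOXB13 was called at 50.7% of the 1237 sites with both regions and at 15.1% of the 2591 with neither. HDAC1 lay at 15.6% and 1.43%, and the ATAC peak was called after LNCaP knockdown at 62.4% and 50.6%. LNCaP HOXB13 was the weaker of the signals there, with a median of 9.31 against 11.1 tags, and ATAC the stronger, with 5.53 against 4.43. The share with control H3K27ac in PC-3 went up with LNCaP ATAC strength, from 18.0% to 55.3% over 5 equal groups, and down with LNCaP HOXB13 strength, from 40.1% to 24.7%. Against control ATAC peaks with neither HOXB13 nor HDAC3, 54.1% of which were covered by PC-3 H3K27ac, the ATAC peaks at the sites had 32.0%, a difference of -21.2 points (-22.8 to -19.7) at equal ATAC strength.

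Across the 12 lists the sites were called in 2 to 10, most often in 5 (1087 sites, 26.6%). Only 117 (2.86%) were called in no list beyond the 2 that chose them. Those called in 9 or more numbered 153 (3.74%). The strength of HOXB13 in the control went with which sites were bound again by the re-expressed forms: over 5 equal groups, the WT share went from 56.5% to 97.7% and the G84E share from 44.1% to 95.6%. ATAC strength did not order the WT share, which was 77.1% at the weak and 76.4% at the strong end, but HOXB13 calls after knockdown went from 1.22% to 6.61% over the groups by ATAC strength. HDAC1 and PC-3 H3K27ac went opposite ways with the 2 strengths: HDAC1 went from 1.59% to 15.4% with ATAC and from 11.6% to 2.08% with HOXB13 strength. PC-3 HOXB13 went up with both, from 23.2% to 36.4% with ATAC strength.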

How the data were processed

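Peak lists of 12 of the 16 samples, 1 library per group, were used; the 4 LNCaP H3K27ac samples were not analysed here. The submitters' processing notes name Bowtie2, HOMER 4.2 and hg19. The authors used HOMER findPeaks on each library, per the file headers, at a false discovery rate of 0.001, without an input library. Factor peaks had to exceed the surrounding 10000 bp by 4-fold at a local Poisson p-value of 0.0001, per the file headers. H3K27ac regions were stitched from windows of 1000 bp. The deposited signal is the normalized tag count per 10000000 tags. The deposited fold over local ratio, the focus ratio (a fraction) and the findPeaks score are the authors' values per peak; the score only ranked peaks within a list.

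Peaks were joined by an overlap of at least 1 bp, taking the highest tag count where several matched. Shares have Wilson 95% intervals and crude differences of shares between classes Newcombe intervals. Differences at equal strength, the gaps between the forms and differences between those gaps have symmetric intervals by the normal approximation. Standardised differences weight the other class to the sites over 10 equal groups of control tag count. In comparisons of ATAC peaks, those at the sites could themselves overlap a control HDAC3 peak, while those with neither HOXB13 nor HDAC3 could not. Medians have order-statistic intervals, and ratios at single regions exact (Clopper-Pearson) intervals from recovered tags. In all, 27 differences between classes of HOXB13 peaks were computed, unadjusted. The joins were tested on simulated peaks. The members, lists and comparisons were chosen with earlier results of these data known; the comparison with ATAC peaks without HOXB13, the gap between the forms and the split at calling thresholds were added after seeing the data. Regions named were the first of the 5 highest or most extreme by a set rule (control HOXB13, control ATAC, ATAC change, G84E over WT, knockdown HDAC3, knockdown HOXB13, and strongest with neither form; changes only at sites whose mean tag count reached the median), with chromosome 8 left out. Sequences, motifs and genes at the sites were not analysed here. Calculations used Python 3.11.15, numpy 2.4.6, pandas 2.3.3 and scipy 1.17.1.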

Additional observations from a re-analysis of the deposited data

How the results depend on the processing

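Of 90 alternative values for 16 results, 35 stayed within the interval of the reported value, 53 lay outside it and 2 changed sign. The latter were the WT share relative to closed sites, -1.08 points at equal strength, and the ATAC ratio after knockdown, -0.027 per bp. Requiring an overlap of 50% of the shorter peak gave 1.97% for HOXB13 after knockdown, 73.2% for WT, 65.6% for G84E, 52.6% for ATAC and 14.9% for HDAC3 after knockdown, 3.06% for HDAC1, 12.9 points for HDAC3 against closed sites and -14.0 for PC-3 HOXB13 against open sites with HDAC3. Requiring centres within 100 bp gave, in the same order, 1.65%, 69.2%, 61.0%, 48.7%, 12%, 2.70%, 10.3 and -9.47 points, with 36.8% for PC-3 H3K27ac, -14.6 points for ATAC against open sites with HDAC3 and a G84E to WT ratio of -0.33. The better-scoring 50% of every list left 1668 sites, with HDAC3 after knockdown at 19.2%, HDAC1 4.68%, PC-3 HOXB13 23.8%, PC-3 H3K27ac 24.4%, WT 3.96 points above closed sites, ATAC -16.0 points, HDAC3 16.9 points, G84E to WT -0.33 and ATAC ratio 0.13. With no HDAC3 peak within 1000 bp, the values were 2.23% for HOXB13 after knockdown, 79.3% for WT, 19.7% for HDAC3, 3.71% for HDAC1, 25.8% for PC-3 HOXB13, 24.4% for PC-3 H3K27ac, 14.8 points for WT, 17.2 for HDAC3, -19.5 for PC-3 HOXB13 and 0.20 for the ATAC ratio. Without regions called in 9 or more lists they were 2.36% for HOXB13 after knockdown, 52.6% for ATAC, 19.3% for HDAC3, 4.57% for HDAC1, 25.2% for PC-3 HOXB13, 29.8% for PC-3 H3K27ac, -13.2 points for ATAC, 16.5 for HDAC3 and -1.98 for PC-3 HOXB13. Every list read out was among those counted in that step, which left out regions in part for having the peak in question. With each list cut to the length of the control list, WT was called at 65.4% and G84E at 56.9%. At equal strength the difference was -9.89 points for ATAC and 17.2 for HDAC3, and per bp the G84E to WT ratio was -0.35. The wider gap between the forms than at closed sites lay between 4.12 and 5.79 points in all 7 alternatives, which were chosen after seeing the data. The cause of the shifts with the overlap rule was not tested. No paired analysis was possible because each group held 1 library and the labels carry no replicate numbers. Depth limits what could be called: 2.46% and 2.38% of tags lay in ATAC peaks (control and knockdown) and 2.13% in HOXB13 peaks after knockdown, and the shallowest libraries held 13.5 M (PC-3 H3K27ac, knockdown) and 14.0 M tags (HDAC1).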
